A study of Sus scrofa with 11 samples.

Results

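The mitochondrial ribosomal proteins are nuclear-encoded subunits of the ribosome inside mitochondria. Their genes carry the symbols MRPL (large subunit) and MRPS (small subunit). Members were all gene IDs of the deposited pig count table whose symbol starts with MRPL or MRPS and that reached at least 1 CPM (counts scaled to a common library total) in at least 4 of the 11 samples. The table holds 25322 gene IDs, of which 11804 have a symbol, and 44 of them met the rule, 30 MRPL and 14 MRPS genes. All 44 reached 1 CPM in each of the 11 pigs, so the threshold removed none, and there was no gene just outside it. The gene just inside was MRPL54, whose lowest value before scaling was 1.14 CPM. The gene name table lists 65 MRPL and MRPS symbols, and the other 21 sit on IDs that the count table does not list, MRPL12, MRPS12, MRPS7 and MRPS30 among them. Those genes were not analysed here.

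The mitochondrial ribosome makes only the few proteins encoded by mitochondrial DNA, all of them subunits of the respiratory chain and ATP synthase. Its ribosomal RNAs come from mitochondrial DNA, while every one of its proteins is made in the cytosol and imported. Part of these proteins have counterparts in the bacterial ribosome and part are found only in mitochondria. In skeletal muscle, type I fibres are slow and rich in mitochondria, and type IIB fibres are fast and depend mainly on glycolysis.

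The 11 animals were female pigs aged 23 weeks, and the tissue was longissimus lumborum, a back muscle, with 1 column of counts for each animal. The fibre1 group held 7 pigs with more than 17% type I and less than 70% type IIB fibres in the histology of that muscle. The fibre2B group held 4 pigs with less than 8% type I and more than 70% type IIB fibres. The labels name no treatment and no batch, and the groups are classes of histology, so other differences between these pigs cannot be told apart from fibre type. Total gene counts ran from 18369053 to 36374829 in fibre1 pigs and from 14832736 to 22145667 in fibre2B pigs, and the 44 members together held 35918 to 63452 counts in fibre1 pigs and 31938 to 41086 counts in fibre2B pigs. The 6 skeletal muscle markers with an ID (of 10 listed) summed to 126160 to 265750 CPM in fibre1 and 108540 to 139940 CPM in fibre2B. The other cell types' markers stayed far below that, the 4 fibroblast markers tested with 471.88 to 975.6 CPM in fibre1 against 742.89 to 1436.8 CPM in fibre2B. Libraries of fibre1 pigs 5 and 6 stood apart: their 10 most abundant nuclear genes took 45.2% and 44.1% of the counts, where the other 9 pigs had 30.0% to 36.8%, and their scaling factors (TMM) were 0.718 and 0.779, against 0.959 to 1.19 in the others.

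The first comparison asked whether the mitochondrial ribosomal protein genes differ between muscles rich and poor in type I fibres. One of them did: MRPS9 was higher in fibre1, and the other 43 did not pass. All values below are CPM scaled by TMM factors, and all folds are log2, fibre1 minus fibre2B, from edgeR's quasi-likelihood test over all 11329 genes tested, with a Benjamini-Hochberg adjusted p of 0.05 as the threshold. Among all genes tested 9.01% passed, 4.38% higher and 4.63% lower in fibre1. Of the members 1 of 44 passed (2.27%), higher in fibre1, and 0 were lower in fibre1.

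MRPS9 (ENSSSCG00000028020) encodes a protein of the small subunit head whose bacterial counterpart, S9, reaches the transfer RNA in the peptidyl site. It had 50.6 CPM in the lowest, 60.2 in the median and 93.2 in the highest of the fibre1 pigs, against 40.5, 38.5, 35.3 and 31.9 CPM in fibre2B pigs 10, 11, 14 and 16. Each of the 7 fibre1 pigs was thus above every fibre2B pig, with fibre1 pigs 5 and 6 at the top. The fibre1 pigs averaged 65.2 ± 15.2 CPM (SD, n = 7) and the fibre2B pigs 36.6 ± 3.77 CPM (SD, n = 4). The log2 fold change was therefore 0.83 ± 0.17 (± SE), or 1.78-fold, with an edgeR adjusted p of 0.019. The call was lost without fibre2B pig 14 (0.83, adjusted p = 0.071), without fibre2B pig 16 (0.78, adjusted p = 0.058) and without fibre1 pigs 5 and 6 together (0.64, adjusted p = 0.0502). It passed without each of the other 9 pigs. A fit that adjusts for how much of each library the 10 top genes took gave 0.66 (adjusted p = 0.029).

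Because the tissue was measured in bulk, fewer cells of a type and less RNA per cell cannot be told apart in any of these values. Markers of other cells moved between the groups beside MRPS9. The fibroblast genes DCN (log2 fold change -1.13 ± 0.23) and LUM (-1.05 ± 0.25) fell in fibre1, and the other 2 fibroblast markers tested did not pass. The red cell gene HBB (-1.27 ± 0.35) and the satellite cell gene VCAM1 (-1.003 ± 0.29) fell as well. The other red cell marker tested, ALAS2, had -1.14 ± 0.42, and the other satellite cell markers, MYF5 and CDH15, had -0.28 ± 0.50 and 0.16 ± 0.28, and none of these 3 passed. Red cell markers summed to 136.83 to 466.74 CPM in fibre1 and 422.7 to 954.46 CPM in fibre2B. Of the 4 endothelial markers 0 passed (2 called by DESeq2). TIE1 had 0.78 ± 0.24 and TEK -0.74 ± 0.25, and 3 of the 4 values were positive. Of the 4 immune markers 0 passed, with CD68 at -0.99 ± 0.44 and PTPRC at -0.84 ± 0.44, and 2 of the 4 values were positive. The 6 muscle markers tested all had positive values (median 0.46) and 0 of them passed. The part of these shifts in the MRPS9 value was not tested.

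**Figure D1:**
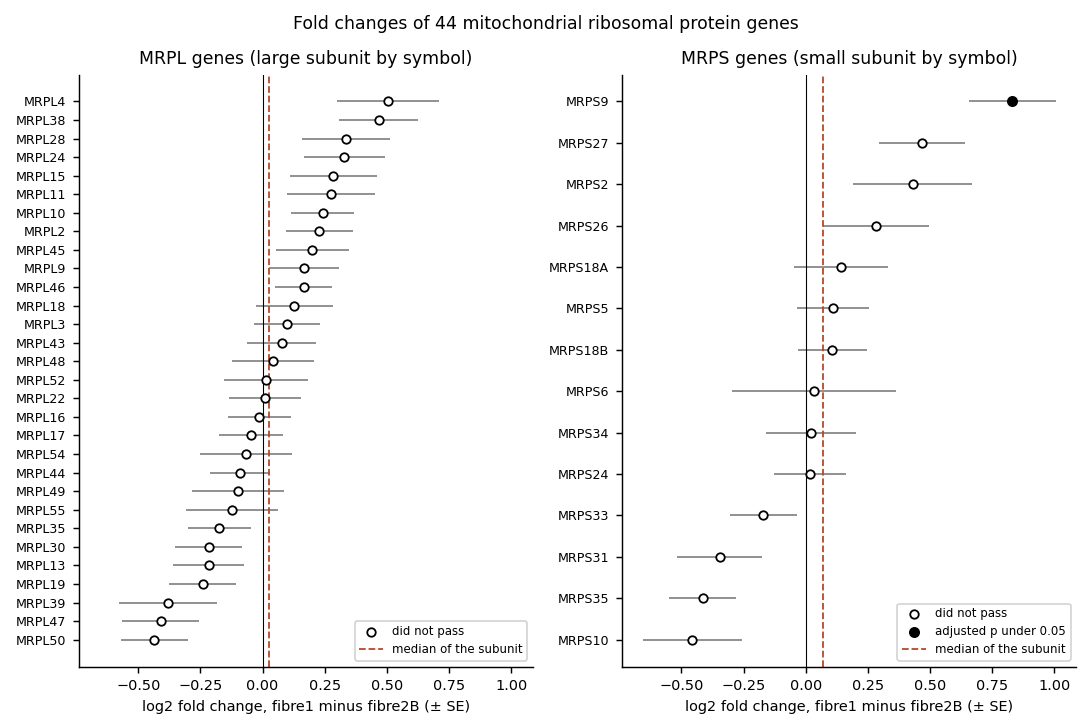
Log2 fold change (fibre1 minus fibre2B, ± SE) of each of the 30 MRPL genes and 14 MRPS genes, sorted by value. MRPS9 at 0.83 is the only filled point, and the dashed lines mark the medians of 0.03 (MRPL) and 0.07 (MRPS).

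The other 43 members did not pass. Over the 44 genes the median log2 fold change was 0.04, against 0.01 over all genes tested, and the range was -0.46 to 0.83. The log2 fold change was positive in 27 members (61.4%, against 50.7% of all genes tested) and negative in 17. The count of positive members depended on the setting. It was 12 with no scaling factors and 13 with the total that leaves out mitochondrially encoded and the most abundant genes. The median over all genes tested was -0.19 and -0.16 under those settings. The count was 20 with the share of each library taken by the 10 top genes as a covariate. It was 21 without fibre1 pigs 5 and 6, and 22 with upper-quartile factors. The size of the log2 fold change was under 0.25 in 28 members (63.6%), against 39.3% of all genes tested, and its median size was 0.19, against 0.32. Counting an unadjusted p under 0.05, 8 members (18.2%) were below it, 4 in each direction, against 28.9% of all genes. The groups did not overlap in 3 members (6.82%), against 7.55% of all genes, and these were MRPS9, MRPL50 and MRPS35. The share without overlap was near that of the whole table.

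The next largest positive values were those of MRPL4, MRPS27 and MRPL38, none of which passed. MRPL4 belongs to the ring of proteins that line the tunnel through which the new peptide leaves. It had 18.7, 23.2 and 35.6 CPM in the lowest, median and highest fibre1 pig, against 12.5, 21.8, 18.2 and 21.0 CPM in fibre2B pigs 10, 11, 14 and 16, a log2 fold change of 0.50 ± 0.20 (edgeR adjusted p = 0.123). Values of the groups overlapped, and fibre1 pig 5 was the highest. MRPS27, a pentatricopeptide repeat protein of the small subunit, had 38.6, 50.0 and 66.6 CPM in the lowest, median and highest fibre1 pig, against 30.6, 39.4, 44.4 and 35.2 CPM in fibre2B (0.47 ± 0.17, edgeR adjusted p = 0.098). Only fibre2B pigs 11 and 14 reached into the range of fibre1. MRPL38, part of the central protuberance at the top of the large subunit, had 32.9, 42.0 and 50.0 CPM in the lowest, median and highest fibre1 pig, against 28.2, 36.2, 26.8 and 25.6 CPM in fibre2B (0.47 ± 0.16, edgeR adjusted p = 0.075). One pig of fibre2B, pig 11, lay within the fibre1 range. MRPL38 passed without fibre1 pig 12 (0.51, adjusted p = 0.047) and with DESeq2 (0.48, adjusted p = 0.042).

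Without fibre1 pigs 5 and 6 the log2 fold changes were 0.31 for MRPL4 and 0.31 for MRPS27, and 0.37 for MRPL38. With no scaling factors they were 0.25, 0.22 and 0.24, while the median of all genes tested moved to -0.19. MRPS9 under that setting was 0.59 (adjusted p = 0.041).

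On the negative side MRPL50 and MRPS35 had groups that did not overlap, and both were picked out after their values were seen. MRPL50, a large subunit protein found only in mitochondria, had 15.0, 17.8 and 20.0 CPM in the lowest, median and highest fibre1 pig, against 21.9, 22.2, 30.3 and 21.3 CPM in fibre2B pigs 10, 11, 14 and 16 (-0.44 ± 0.13, edgeR adjusted p = 0.057). All 7 fibre1 pigs were below the fibre2B pigs, and fibre2B pig 14 was far above the other 3. MRPS35, of the small subunit, had 17.2, 18.1 and 21.9 CPM in the lowest, median and highest fibre1 pig, against 22.3, 22.9, 31.4 and 25.8 CPM in fibre2B (-0.41 ± 0.13, edgeR adjusted p = 0.067). Here too fibre2B pig 14 was the highest of all. Without that pig the values were -0.29 (adjusted p = 0.210) for MRPL50 and -0.29 (adjusted p = 0.232) for MRPS35. MRPL50 passed with DESeq2 (-0.43, adjusted p = 0.026), with a minimum of 1 CPM in 4 pigs for all genes (-0.44, adjusted p = 0.0487), and without fibre1 pig 12 (-0.46, adjusted p = 0.045) or pig 17 (-0.47, adjusted p = 0.0491). MRPS35 passed with DESeq2 (-0.41, adjusted p = 0.037).

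**Figure D2:**
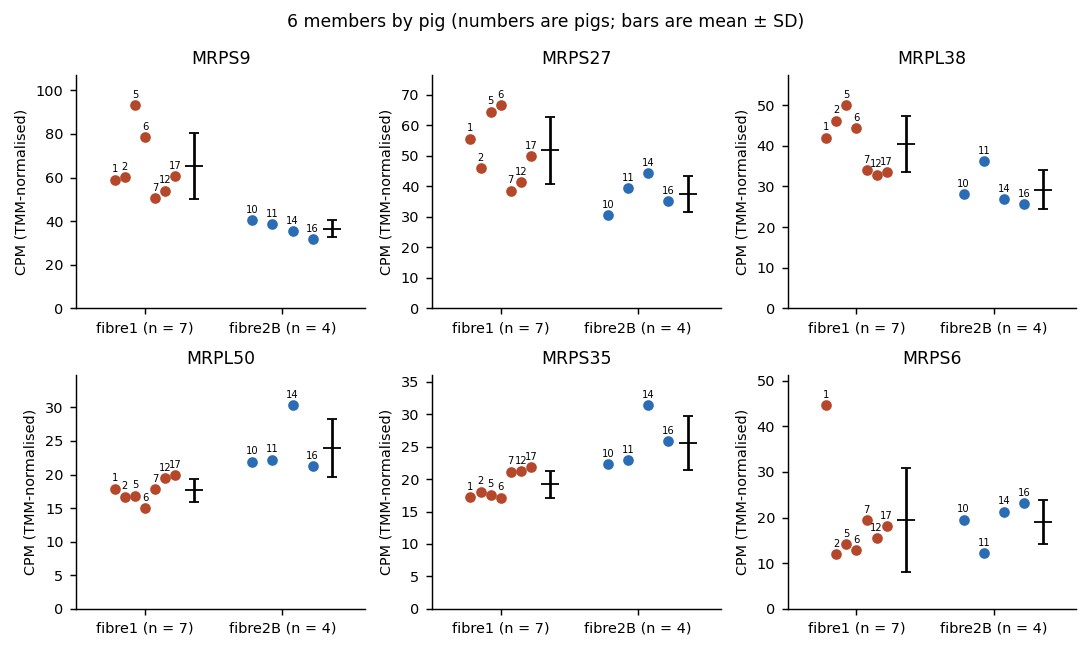
TMM-normalised CPM of 6 members in each pig, with fibre1 (n = 7) left of fibre2B (n = 4) and bars of mean ± SD. MRPS9 lies above fibre2B in every fibre1 pig, MRPL50 and MRPS35 lie below it, MRPS27 and MRPL38 overlap, and MRPS6 has a single high value of 44.6 CPM in fibre1 pig 1.

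Members with few counts had negative values more often. MRPS10, a small subunit head protein with a bacterial counterpart, had 6.12, 9.69 and 14.6 CPM in the lowest, median and highest fibre1 pig, against 15.2, 13.4, 15.2 and 12.2 CPM in fibre2B (-0.46 ± 0.20, edgeR adjusted p = 0.150). MRPL47, the counterpart of bacterial L29 at the mouth of the exit tunnel, had -0.41 ± 0.15, MRPL39 had -0.38 ± 0.20 and MRPS31 had -0.35 ± 0.17. These 3 were picked out after their values were seen, and none passed (edgeR adjusted p = 0.102, 0.217 and 0.198). Of the 22 members above the median of 31.8 CPM, 20 had a positive log2 fold change, and of the 22 at or below it 7 did. The split was 9 and 3 of 22 with no scaling factors, 10 and 3 with the total that leaves out abundant genes, and 14 and 7 without fibre1 pigs 5 and 6. Among all genes tested the split at the same CPM was 61.1% positive above it and 48.3% at or below it. Across the 44 genes the rank correlation of mean log2 CPM with log2 fold change was 0.51 (Spearman's rho, given as a description, since genes share libraries and are not replicates), against 0.15 across all genes tested. CPM is not divided by transcript length, so this sorts genes by counts and not by level.

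Large and small subunit were set side by side next. Of the 30 MRPL genes 0 passed, with 17 positive and 13 negative values, a median of 0.03 and a range of -0.44 to 0.50. Of the 14 MRPS genes 1 passed, with 10 positive and 4 negative values, a median of 0.07 and a range of -0.46 to 0.83. Summed over members, the ratio of MRPL to MRPS counts was 2.62 in the lowest, 2.69 in the median and 3.04 in the highest fibre1 pig, against 3.15, 2.76, 2.79 and 3.004 in fibre2B pigs 10, 11, 14 and 16. The groups overlapped, with means of 2.78 ± 0.17 in fibre1 and 2.93 ± 0.19 in fibre2B (SD). The difference of the log2 ratios was -0.07, within 1 SD between pigs (0.09).

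Symbols do not always give the subunit. MRPS18A and MRPS30 carry MRPS names but sit in the large subunit of the mammalian mitochondrial ribosome, and MRPS36 is now known as a part of the oxoglutarate dehydrogenase complex. Of these MRPS18A was measured here, averaging 60.7 ± 16.5 CPM in fibre1 pigs and 54.9 ± 4.50 in fibre2B pigs (0.14 ± 0.19, edgeR adjusted p = 0.648). With MRPS18A counted as large, the medians were 0.04 over 31 large and 0.03 over 13 small subunit genes, and the ratio was 3.29 ± 0.16 in fibre1 and 3.48 ± 0.24 in fibre2B. The MRPS18A value changed sign without fibre1 pigs 5 and 6 (-0.09). Split by origin, the 24 proteins with a bacterial counterpart had a median of 0.10 and the 20 found only in mitochondria a median of 0.02.

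Proteins of the large subunit can be followed by their place. At the stalk base, where translation factors bind, MRPL11 had 30.1, 39.3 and 57.0 CPM in the lowest, median and highest fibre1 pig, against 30.3, 41.3, 35.5 and 30.3 CPM in fibre2B (0.27 ± 0.18, edgeR adjusted p = 0.325). The lowest value of all was in fibre1 pig 12 and the highest in fibre1 pig 5. Near the peptidyl transferase centre, MRPL2 averaged 36.9 ± 5.78 CPM in fibre1 pigs and 31.4 ± 1.17 in fibre2B pigs (0.23 ± 0.14), and MRPL3 had 31.3 ± 3.47 and 29.2 ± 4.14 CPM (0.10 ± 0.13). At the tunnel exit, MRPL24 averaged 120.0 ± 22.2 CPM in fibre1 pigs and 95.5 ± 13.3 in fibre2B pigs (0.33 ± 0.16), and MRPL45, which holds the ribosome to the inner membrane, had 68.0 ± 10.3 and 59.2 ± 7.56 CPM (0.20 ± 0.15). In the central protuberance, MRPL18 averaged 89.4 ± 14.9 CPM in fibre1 pigs and 81.8 ± 13.3 in fibre2B pigs (0.13 ± 0.15), and MRPL48 had 64.1 ± 13.6 and 62.3 ± 4.81 CPM (0.04 ± 0.17). None of these passed (edgeR adjusted p from 0.195 to 0.892), and the values of MRPL3, MRPL18, MRPL45 and MRPL48 turned negative with no scaling factors. Under that setting MRPL24 had 0.10 and MRPL2 had 0.01.

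MRPL28 and MRPL17, both with bacterial counterparts, were with MRPL24 the members of most counts. MRPL28 had 123.1, 147.7 and 234.4 CPM in the lowest, median and highest fibre1 pig, against 124.9, 121.5, 114.8 and 136.1 CPM in fibre2B (0.34 ± 0.18, edgeR adjusted p = 0.221). Pig 5 of fibre1 stood well above all others, and without fibre1 pigs 5 and 6 the log2 fold change was 0.15. MRPL17 averaged 135.5 ± 17.4 CPM in fibre1 pigs and 139.9 ± 11.0 in fibre2B pigs (-0.05 ± 0.13). At the other end MRPL54 had 2.17 ± 0.31 and 2.28 ± 0.088 CPM (-0.07 ± 0.19), and MRPL49 had 9.38 ± 1.995 and 10.1 ± 1.58 CPM (-0.10 ± 0.19). MRPL17, MRPL54 and MRPL49 did not pass (edgeR adjusted p from 0.754 to 0.841).

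The summed level of the 44 members depended on the scaling. With TMM factors it was 1633 CPM in the lowest, 1830 in the median and 2352 in the highest fibre1 pig, against 1681, 1781, 1813 and 1707 CPM in fibre2B pigs 10, 11, 14 and 16. The groups overlapped, since fibre1 held both the highest pigs (5 and 6) and the lowest (12 and 7). The means were 1903 ± 256 CPM in fibre1 pigs and 1745.5 ± 61.7 in fibre2B pigs, a difference of 157 CPM, and it was 36.1 CPM without fibre1 pigs 5 and 6. With total counts alone the order of the means turned round, at 1792 ± 118 CPM in fibre1 and 1923 ± 216 CPM in fibre2B. All genes tested moved with it: their median log2 fold change was -0.19 with no scaling factors, and that of the members -0.17.

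**Figure D3:**
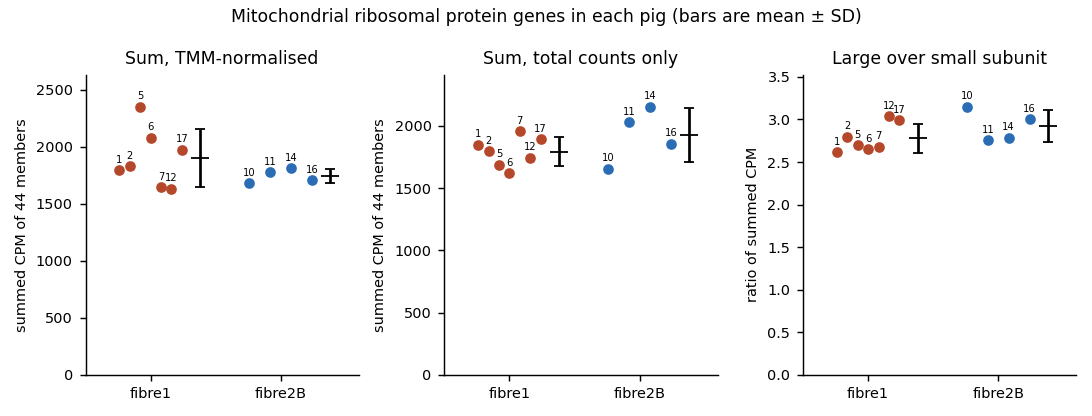
Summed CPM of the 44 members in each pig with TMM factors (left) and with total counts alone (middle), and the ratio of MRPL to MRPS sums (right), with fibre1 left of fibre2B and bars of mean ± SD. Fibre1 pigs 5 and 6 are the highest of all pigs on the left, at 2352 and 2080 CPM, and the lowest of fibre1 in the middle, at 1689 and 1620 CPM.

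Coherence was measured as the Pearson correlation of log2 CPM between each pair of members over the 11 pigs, on values centred on the group means, so that the difference between the groups does not enter. Over the 946 pairs the median r was 0.18, with quartiles of -0.22 and 0.53. The median was 0.38 with no scaling factors and 0.12 with upper-quartile factors. Over all pairs of tested genes the median with TMM factors was 0.0021, with quartiles of -0.29 and 0.30. It was not computed under the other scalings. An r above 0.5 was found in 27.2% of the members' pairs and 11.3% of all pairs, and an r below -0.5 in 9.30% and 10.9%. Pairs within the large subunit had a median of 0.18, pairs within the small subunit 0.07, and pairs across the subunits 0.20. These are descriptions: pairs share genes, pigs and libraries, so they are not independent.

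Other multi-subunit machines were read from the same libraries in the same way. The median pairwise r was 0.64 over 39 nuclear genes of the respiratory chain and ATP synthase tested, of 74 listed. It was 0.58 over 24 cytosolic ribosomal protein genes tested, of 79 listed, and 0.84 over 13 mitochondrially encoded protein genes. It was 0.21 over 12 mitochondrial translation factors, 0.03 over 17 genes of ribosome assembly and 0.01 over 15 mitochondrial aminoacyl-tRNA synthetases. The difference between these medians was not tested. The lists also differed in counts. In fibre1 pigs the respiratory chain genes summed to 8540.5 to 13237 CPM and the cytosolic ribosomal genes to 17510 to 26761 CPM. The 44 members summed to 1633 to 2352 CPM there, and the 12 translation factors to 360.13 to 505.01 CPM. Among the members, correlation with the mean of the others rose with mean log2 CPM (Spearman's rho 0.60). The part of counts in these medians was not tested.

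**Figure D4:**
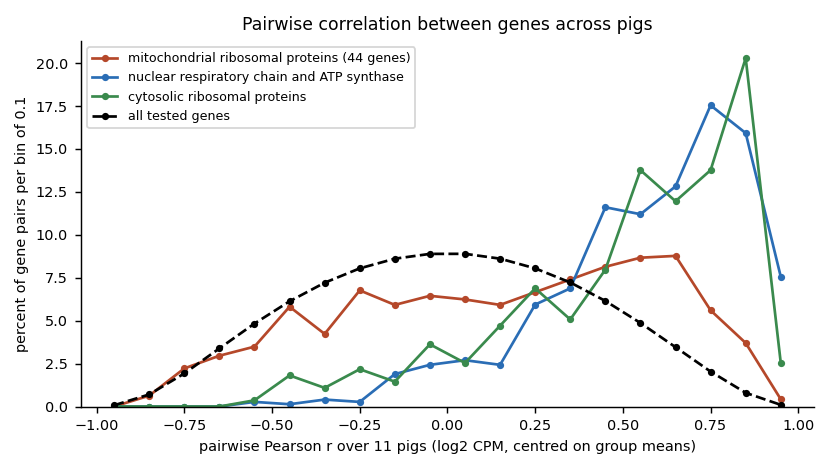
Distribution of pairwise Pearson r over the 11 pigs, on centred log2 CPM, as percent of gene pairs per bin, for the members, 2 comparison lists and all tested genes. The members spread broadly around a median of 0.18, between all tested genes (0.0021) and the respiratory chain (0.64) and cytosolic ribosomal (0.58) genes. Both comparison lists hold more counts than the members, and the part of that in the medians was not tested.

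The members did not move as 1 block. The first principal component of the centred values held 48.8% of the variance, and 29 members loaded on it positively and 15 negatively. Fibre1 pigs 5 and 6 scored 2.19 and 1.54 on it, fibre1 pig 12 scored -1.67, and the other 8 pigs lay between -1.09 and 0.81. The pigs at the positive end were those with the smallest scaling factors and the largest share of counts on 10 genes, and the part of that in the pattern was not tested. Fibre1 pig 5 was the highest of the 7 fibre1 pigs for 21 members and pig 17 for 11, while pig 12 was the lowest for 16 and pig 6 for 11. Fibre1 pig 7 was the highest for 0 members and the lowest for 9, and fibre1 pig 17 was the lowest for 0.

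Each member was also correlated with the mean of the other 43. The highest values were those of MRPL48 (r = 0.85), MRPL18 (0.84) and MRPL2 (0.81). The lowest were those of MRPL49 (-0.71), MRPS10 (-0.66) and MRPL54 (-0.63), the 3 members with the fewest counts, and 9 members in all had a negative r. The rank correlation of this r with mean log2 CPM across the 44 genes was 0.60. The closest pair was MRPL11 with MRPL52 (r = 0.94 over 11 pigs), and the most opposed pair was MRPS10 with MRPS18A (r = -0.90). MRPL52 was named after its values were seen.

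**Figure D5:**
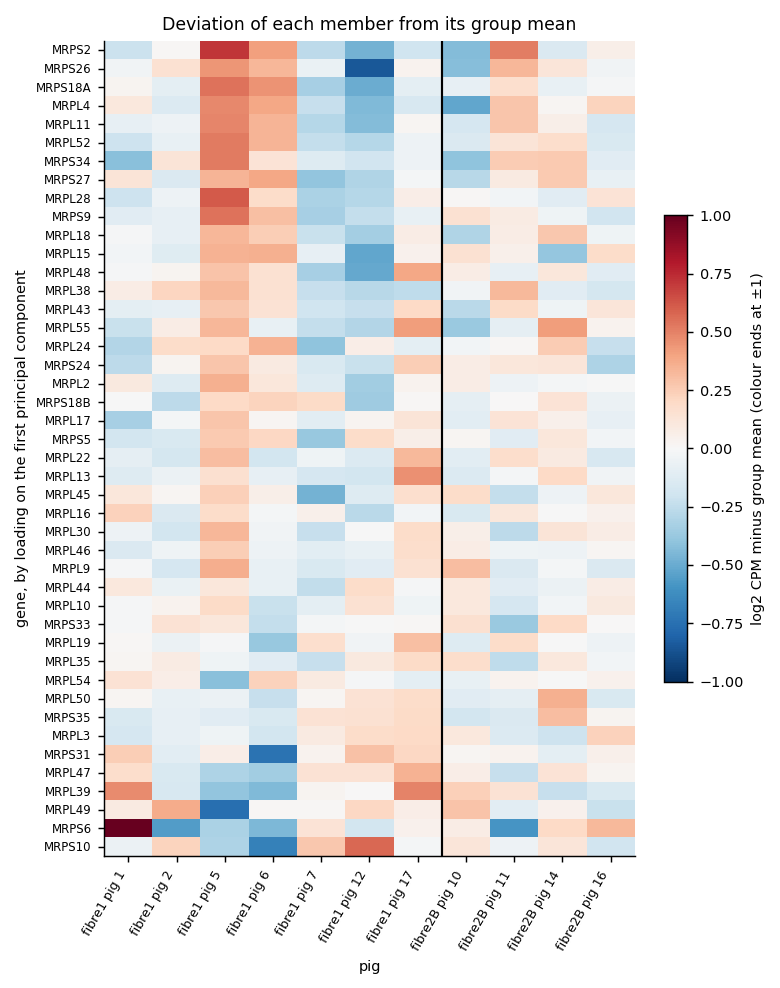
Log2 CPM of each member minus its group mean, with pigs in columns (fibre1 left of the black line) and genes in rows, sorted by loading on the first principal component. Fibre1 pig 5 is high for most rows at the top and low for MRPS10, MRPL39 and MRPL49 at the bottom, while fibre1 pig 12 is low for most rows at the top and high for MRPS10.

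Spread within a group was modest for most members. The coefficient of variation in fibre1 ran from 8.23% (MRPS33) to 58.3% (MRPS6), with a median of 16.9%. In fibre2B it ran from 3.74% (MRPL2) to 28.7% (MRPS2), with a median of 12.8%. MRPS2, of the small subunit, had 14.6, 17.7 and 33.3 CPM in the lowest, median and highest fibre1 pig, against 11.2, 21.7, 13.7 and 15.8 CPM in fibre2B (0.43 ± 0.24, edgeR adjusted p = 0.254). It was picked out for its spread after its values were seen.

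Isoforms were read from the deposited isoform counts, joined to genes through the values. Of the 44 members 41 had a single isoform with at least 11 counts over all pigs, so for these a shift of isoform could not be seen. MRPL13 had 2, and the larger (ENSSSCT00000034332) took 69.9 ± 4.55% of its counts in fibre1 and 67.9 ± 3.42% in fibre2B. MRPL3 also had 2, and the larger (ENSSSCT00000035743) took 82.5 ± 3.24% in fibre1 and 81.0 ± 4.997% in fibre2B. Both differences are within the SD of the pigs. In MRPS18B the second isoform held at most 0.40% in any pig.

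Other genes of mitochondrial translation and its surroundings were counted by the same test. Among all genes tested 9.01% passed, 28.9% had an unadjusted p under 0.05, and DESeq2 called 15.4%. The counts of each list below are to be read beside these shares. Of 3 further ribosomal proteins with other symbols 0 passed (median 0.04; 0 at an unadjusted p under 0.05, 0 called by DESeq2), with PTCD3 at 0.26 ± 0.16 and CHCHD1 at -0.11 ± 0.13. Of 12 translation factors 0 passed (median -0.07; 2 at an unadjusted p under 0.05, 1 called by DESeq2). Among them TUFM, the elongation factor that brings transfer RNA to the ribosome, averaged 80.3 ± 21.2 CPM in fibre1 pigs and 53.6 ± 6.79 in fibre2B pigs (0.58 ± 0.19, edgeR adjusted p = 0.069), and MTRF1L, a release factor, had -0.44 ± 0.18. TUFM passed with DESeq2 (adjusted p = 0.033) and without fibre1 pig 7 (adjusted p = 0.0484) or pig 12 (adjusted p = 0.0486).

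Of 15 mitochondrial aminoacyl-tRNA synthetases 2 had an unadjusted p under 0.05 and DESeq2 called 1. By the main test 1 was higher in fibre1 and 0 lower (median 0.18). It was LARS2, which charges mitochondrial leucine transfer RNA, averaging 11.3 ± 3.11 CPM in fibre1 pigs and 6.06 ± 0.54 in fibre2B pigs (0.90 ± 0.21, edgeR adjusted p = 0.026). The groups did not overlap in LARS2. Leaving out fibre1 pig 2, or any of fibre2B pigs 10, 14 and 16, ended the call, with an adjusted p of 0.051 to 0.079. So did leaving out fibre1 pigs 5 and 6 together (0.085) and dropping the scaling factors (0.090). Over all genes tested 0% to 2.82% passed without fibre1 pig 2 or fibre2B pig 10, 14 or 16. Of 17 genes of mitochondrial ribosome assembly and ribosomal RNA modification 0 passed (median 0.10; 3 at an unadjusted p under 0.05, 1 called by DESeq2), with MRM1, a methyltransferase of mitochondrial ribosomal RNA, at 0.56 ± 0.19 and the GTPase MTG1 at 0.58 ± 0.23 (edgeR adjusted p = 0.075 and 0.118). MRM1 passed with DESeq2 (adjusted p = 0.041) and MTG1 without fibre1 pig 12 (adjusted p = 0.0486).

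Of 6 genes of mitochondrial transcription and replication 2 had an unadjusted p under 0.05 and DESeq2 called 2. By the main test 1 was higher in fibre1 and 0 lower (median -0.07). POLG, the mitochondrial DNA polymerase, averaged 39.7 ± 9.50 CPM in fibre1 pigs and 18.3 ± 1.44 in fibre2B pigs (1.11 ± 0.19, edgeR adjusted p = 0.016), with no overlap of the groups. Its call was lost without fibre2B pig 14 (adjusted p = 0.057) and without fibre1 pigs 5 and 6 (0.0502). Those fits called 0 and 28 genes in the whole table. Of 7 regulators of mitochondrial biogenesis 2 had an unadjusted p under 0.05 and DESeq2 called 1. By the main test 1 was higher in fibre1 and 0 lower (median 0.21). That gene was ESRRA, a nuclear receptor acting on mitochondrial genes, at 0.65 ± 0.16 (edgeR adjusted p = 0.032). Of 39 nuclear respiratory chain and ATP synthase genes 1 was higher in fibre1, the complex I subunit gene NDUFA10 (0.77 ± 0.22, edgeR adjusted p = 0.044), and 1 lower, the cytochrome oxidase subunit gene COX7A2 (-0.48 ± 0.13, edgeR adjusted p = 0.040). The median of the 39 was 0.08, 7 of them had an unadjusted p under 0.05, and DESeq2 called 4. Of the 11 fits that leave out a pig, the call was lost in 6 for ESRRA, 9 for NDUFA10 and 8 for COX7A2. The share of all genes called in those 11 fits ran from 0% to 13.9%. Of 13 mitochondrially encoded protein genes, the products of this ribosome, 0 passed (0 at an unadjusted p under 0.05, 0 called by DESeq2), and 3 had positive values (median -0.25). The 2 of smallest p were ND2 at -0.54 and ND6 at 0.57, both complex I subunit genes (edgeR adjusted p = 0.349 and 0.414). Of 24 cytosolic ribosomal protein genes 0 passed (6 at an unadjusted p under 0.05, 4 called by DESeq2), and 5 had positive values (median -0.20), with RPL11 at -0.49 ± 0.15 and RPS21 at -0.55 ± 0.18 (edgeR adjusted p = 0.061 and 0.063). RPL11 passed with DESeq2 and without fibre1 pig 12, and RPS21 with DESeq2, with upper-quartile factors, with the total that leaves out the most abundant genes, and without fibre1 pig 17.

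Some counts are uncertain for reasons of annotation. In RefSeq's gene table, of another build (Sscrofa11.1) and used here only for which genes lie together, the spans of 12 members overlap another protein-coding gene. MRPL28, MRPL2, MRPS27, MRPS2, MRPS6, MRPL47 and MRPL49 are among them, while MRPS9, MRPL38, MRPL4, MRPL50 and MRPS35 are not. The sources used here do not say whether counting used strand, so reads of such neighbours cannot be told apart from those of the member. The counts of each member were unlike those of every other ID.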

How the data were processed

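Per the labels' protocols, 300 ng of total RNA per pig went into TruSeq libraries. The design text speaks of 5 technical repetitions and 50 cycles of single reads, while each pig has 1 column here. The deposited values are expected counts (estimated reads per gene or isoform, not normalized), given without decimals, so rounding changed none. Sscrofa10.2, STAR, RSEM, CASAVA 1.8.2, FastQC, DESeq2 and edgeR appear in the submitters' processing notes, and their roles are not given in the sources used here. There were 0 columns of other samples. Columns were joined to pigs by the number in the sample titles. Replicates were separate pigs. Members and lists were chosen with earlier results of these data known.

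Symbols came from a table of Ensembl gene IDs. RefSeq's table (Sscrofa11.1) gives no Ensembl IDs and added 0 names. The test was run in edgeR 4.0.16 (R 4.3.3), with filterByExpr on the group, TMM factors, a group term and quasi-likelihood F tests, with Benjamini-Hochberg adjustment over all 11329 genes tested. Standard errors were computed as the absolute log2 fold change over the root of F. Log2 CPM for correlations used a prior count of 2. The biological coefficient of variation was 29.8%. A member's isoforms were found as adjoining entries whose summed counts match the gene's in all 11 pigs (tolerance 1 count for each isoform), leaving out isoforms with under 11 counts in all. The join is inferred from the values. The pipeline was tested on simulated data.

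Named were the members that passed, the 3 largest folds that did not, the 3 with the most and the 3 with the fewest counts (no transcript lengths were at hand), the 3 highest and 3 lowest in correlation with the other members, and MRPL11, MRPL3, MRPL45, MRPS27 and MRPS18A. Of each other list, the genes that passed or else the 2 of smallest p were named. Outside this rule MRPL50, MRPS35, MRPS6, MRPL47, MRPL39, MRPS31, MRPS2 and MRPL52 were named after their values were seen. Alternatives were other scaling factors, other filters, DESeq2 1.42.0, limma-voom (limma 3.58.1), a covariate, and leaving out each pig or fibre1 pigs 5 and 6.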

Additional observations from a re-analysis of the deposited data

Results flagged for a closer look

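In 3 of the genes named above 1 pig lay far from the rest of its group by Dixon's ratio, which by chance picks about 1 in 20 groups. Over all 44 members and both groups, 88 sets of values in all, 4 were picked out this way. Of the named genes, MRPS6 and MRPL50 had been named after their values were seen.

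MRPS6, which encodes a small subunit protein with a bacterial counterpart, had 44.6 CPM in fibre1 pig 1, against 11.9 to 19.4 CPM in the other 6 fibre1 pigs, and 19.5, 12.3, 21.3 and 23.2 CPM in fibre2B pigs 10, 11, 14 and 16. Its log2 fold change was 0.03 ± 0.33 (edgeR adjusted p = 0.957) with that pig and -0.31 without it (adjusted p = 0.325). MRPL50 had 30.3 CPM in fibre2B pig 14, against 21.3 to 22.2 CPM in the other 3 fibre2B pigs. MRPL49 had 5.39 CPM in fibre1 pig 5, against 9.23 to 11.9 CPM in the other 6 fibre1 pigs. The causes were not tested.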

How the results depend on the processing

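No paired analysis was possible because fibre1 and fibre2B pigs share no replicate number. The count of members called was 1 in the main setting, 2 with a minimum of 1 CPM in 4 pigs, 4 with DESeq2 (MRPS9, MRPL38, MRPL50 and MRPS35), 0 without fibre1 pigs 5 and 6, and 0 to 3 with each pig left out. It was 0 without fibre2B pig 14 (6 members at an unadjusted p under 0.05) or pig 16 (7), 2 without fibre1 pig 17 and 3 without pig 12. In all other settings it was 1. Where more members passed, calls over all genes tested rose too. They were 1021 of 11329 in the main setting, 1740 of 11329 with DESeq2 and 1104 of 10002 with the 1 CPM minimum. They were 1548 of 11139 without fibre1 pig 12 and 1159 of 11324 without fibre1 pig 17. Without fibre2B pig 14 edgeR called 0 genes in the whole table, with 2436 at an unadjusted p under 0.05. Genes called in the other lists numbered 5, 14 with DESeq2 and 0 to 11 with a pig left out. Of all genes tested 9.01%, 15.4% and 0% to 13.9% passed under the same settings. With no scaling factors, added after seeing the data, the members' median log2 fold change was -0.17 (all genes -0.19), the difference of summed levels -132 CPM and the median pairwise r 0.38. The members' median was -0.0124 without fibre1 pigs 5 and 6 and -0.0147 with the covariate. With a pig left out it ran from 0.01 to 0.09, the difference of sums from 78.2 to 204 CPM, the log2 ratio of subunits from -0.10 to -0.04 and the median r from 0.14 to 0.23. Correcting for the TMM factor as well, also added later, gave a median r of 0.14, and upper-quartile factors gave 0.12. RefSeq added no symbol, so names from the gene name table alone gave the same members.

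Among 39 of the named genes the sign changed in 25 of 819 alternatives, all of genes that did not pass. With total counts that leave out mitochondrially encoded and the 10 most abundant genes, and then with no scaling factors, MRPL48 had -0.16 and -0.19, MRPL18 -0.0759 and -0.11, MRPL3 -0.0608 and -0.0798, MRPS18A -0.0736 and -0.11, MRPS6 -0.13 and -0.12. MRPL45 had -0.0136 with no scaling factors only. MRPL48 had -0.000596 with upper-quartile factors and -0.0424 with the covariate, MRPS18A -0.0448 with the covariate, and MRPS6 -0.0668 with limma-voom. With each pig left out the ranges were -0.0279 to 0.11 for MRPL48, -0.31 to 0.14 for MRPS6, -0.10 to 0.0055 for MRPL17 and -0.17 to 0.0058 for MRPL49. Without fibre1 pigs 5 and 6 MRPL48 had -0.0428, MRPS18A -0.0868 and MRPL49 0.0228. The causes were not tested. Calls rest on 7 against 4 pigs, and members with few counts, such as MRPL54, have the least depth.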
